A study of Homo sapiens with 6 samples.

Results

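The peaks described here are the open chromatin sites of human naive embryonic stem (nES) cells that lay between genes and at some distance from them. A peak was included when its centre lay more than 10 kb and at most 100 kb from the nearest transcript start of a protein-coding gene and outside the body of every protein-coding gene, with genes from GENCODE 44 on hg38. The rule uses positions only and no count. It selected 35083 of the 171517 peaks of the deposited table, or 20.45%, and these are called intergenic peaks below. Accessibility was measured by ATAC-seq, in which a transposase cuts open chromatin and inserts sequencing adapters, so that more reads come from more open sites. All 6 libraries were made from H9 cells. H9 is an established line of human embryonic stem cells, so the data come from 1 genetic background, and it was held in the naive state in tt2iLGö medium, which contains PD0325901, CHIR99021, Gö 6983 and human LIF. The cells had been depleted of the mouse feeder fibroblasts on which they were maintained. In 3 libraries the medium held 4 mM dimethyl α-ketoglutarate (dm-αKG), a cell-permeable form of the TCA cycle intermediate α-ketoglutarate, for 24 h, and the 3 controls held none. The labels name the control treatment DMSO, and the protocols name it 0 mM dm-αKG. The comparison asks how dm-αKG changes the accessibility of distal regulatory sites.

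Intergenic sites of open chromatin include enhancers, which bind transcription factors and act on promoters over a distance through looping, insulators bound by CTCF, and starts of long non-coding RNAs. In naive pluripotent cells, enhancers are typically bound by OCT4 and SOX2, often side by side, together with factors of the KLF and TFAP2 families. AP-1, a dimer of JUN and FOS proteins, opens chromatin at enhancers in many cell types in response to growth factors and stress, and FOX factors can bind nucleosomal DNA. Histone acetylation by enzymes that use acetyl-CoA is a mark of active enhancers. The gene named with a peak below is the one whose protein-coding start is nearest, which does not show that the peak acts on that gene.

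The reference sequences of 7 peaks are shown because they were among the strongest called changes by adjusted p, 3 less and 4 more accessible, of the intergenic peaks whose treatments did not overlap. The peaks near VWF and DCTN6 that ranked above the PTPN1 peak are described by their values only. Each is the plus strand of hg38, 200 bases around the centre of the peak. Capitals mark matches, on either strand, to 1 of 10 consensus words searched in all peaks: OCT (ATGCAAAT), SOX (ACAATGG), KLF (GGGTGTGG), TEAD (GGAATG), AP-1 (TGANTCA), NRF2 (TGACNNNGC), FOX (TGTTTAC), TFAP2 (GCCNNNGGC), a word of the GATA factors (AGATAAG) and a longer CTCF word, for which 1 mismatch was allowed. A match is a description of the letters and does not show that a factor binds. The 3 less accessible peaks lay at chr15:74760270-74760469 (near CYP1A2), chr20:50413228-50413427 (near PTPN1) and chr11:47917905-47918104 (near PTPRJ).
CYP1A2 peak: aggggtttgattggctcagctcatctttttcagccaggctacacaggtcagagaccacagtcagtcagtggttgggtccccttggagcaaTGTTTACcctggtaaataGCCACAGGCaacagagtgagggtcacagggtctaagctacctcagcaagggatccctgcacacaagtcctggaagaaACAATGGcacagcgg
PTPN1 peak: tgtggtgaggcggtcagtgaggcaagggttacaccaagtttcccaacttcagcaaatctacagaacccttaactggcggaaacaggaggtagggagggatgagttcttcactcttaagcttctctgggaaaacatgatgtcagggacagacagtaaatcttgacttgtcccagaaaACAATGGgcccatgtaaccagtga
PTPRJ peak: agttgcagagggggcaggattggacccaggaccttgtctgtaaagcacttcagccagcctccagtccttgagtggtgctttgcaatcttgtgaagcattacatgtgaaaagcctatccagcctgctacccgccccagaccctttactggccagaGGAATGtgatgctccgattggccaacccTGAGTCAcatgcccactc
The CYP1A2 window held FOX, TFAP2 and SOX words in that order, the PTPN1 window held a SOX word, and the PTPRJ window held a TEAD word followed by an AP-1 word.

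The 4 more accessible peaks lay at chr1:212488504-212488703 (near NENF), chr14:76517709-76517908 (near ESRRB), chr5:40808358-40808557 (near PRKAA1) and chr16:1904589-1904788 (near HS3ST6).
NENF peak: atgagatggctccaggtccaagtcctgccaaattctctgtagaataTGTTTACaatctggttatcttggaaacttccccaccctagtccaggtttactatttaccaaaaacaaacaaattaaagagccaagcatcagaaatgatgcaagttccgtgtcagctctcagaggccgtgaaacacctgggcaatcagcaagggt
ESRRB peak: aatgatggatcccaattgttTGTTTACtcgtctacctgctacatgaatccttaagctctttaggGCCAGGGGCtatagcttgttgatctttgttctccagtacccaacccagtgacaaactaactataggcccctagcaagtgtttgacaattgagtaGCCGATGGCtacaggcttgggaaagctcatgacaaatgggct
PRKAA1 peak: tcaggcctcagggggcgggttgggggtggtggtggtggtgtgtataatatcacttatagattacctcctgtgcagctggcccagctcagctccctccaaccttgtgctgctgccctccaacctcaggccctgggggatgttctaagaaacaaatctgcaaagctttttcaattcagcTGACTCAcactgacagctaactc
HS3ST6 peak: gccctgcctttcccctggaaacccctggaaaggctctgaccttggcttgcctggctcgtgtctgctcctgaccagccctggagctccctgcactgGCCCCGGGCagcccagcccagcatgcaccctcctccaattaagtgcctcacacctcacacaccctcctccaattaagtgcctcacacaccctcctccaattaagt
The NENF window held a FOX word, the ESRRB window held a FOX word and 2 TFAP2 words, the PRKAA1 window held an AP-1 word near its end, and the HS3ST6 window held a TFAP2 word. A SOX word was present in the less accessible CYP1A2 and PTPN1 windows and in none of the 4 more accessible ones. An OCT word was present in none of the 7. Among the other peaks named below by rank, the less accessible ones near VWF, DCTN6, PHIP and MEIS3 held neither word. The more accessible peak near ARHGAP24 held an OCT word.

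The libraries held between 13025674 and 26828622 counts in peaks, and TMM factors lay between 0.991 and 1.01. Normalized counts below are counts divided by the effective library size (total counts times the TMM factor) and brought to the mean depth of the 6 libraries. Across intergenic peaks, the correlation of log2 normalized counts was between 0.923 and 0.957 for the 6 pairs of libraries of the same treatment and between 0.886 and 0.909 for the 9 pairs of different treatments, with no library standing apart from its group. The labelled cell type was checked on promoter peaks. Promoter peaks were found for 8 of 9 pluripotency markers, with control means between 200.1 (DNMT3L) and 746 (SUSD2) normalized counts and NANOG at 521, against a median of 103 over all promoter peaks. For each marker the highest promoter peak was taken, which favours values above that median in advance. Promoter peaks were also found for 6 of 7 trophoblast, 6 of 6 primed or early differentiated and 4 of 6 fibroblast markers, with control means of 24.5 to 263, 113 to 195 and 112 to 199.7. Log2 fold changes of these marker promoters lay between -0.42 and 0.33, except for TP63 at 1.10. These peaks were open at promoters of other lineages too, so they do not by themselves separate cell types, and the part of any mixture of cells in the results below was not tested. In these bulk samples, a change in the share of cells that are open at a site cannot be told apart from a change within each cell.

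The intergenic peaks were short, with a median width of 203 bp (range 200 to 771 bp), a median GC content of 53.0% and a median distance of 33.3 kb from the nearest start. They fell to 7901 nearest genes, with a median of 3 and at most 42 peaks (YWHAZ) per gene. Of them, 62.7% lay upstream of the nearest start and 25.1% lay inside a gene annotated as a long non-coding RNA. Their median normalized count was 56.9 over the 6 libraries, with a maximum of 2288. A count of 0 in at least 1 library occurred in 58 peaks. The depth sets the precision of each fold change: the median standard error of the log2 fold change was 0.36 in the lowest of 5 equal groups of intergenic peaks by mean count and 0.12 in the highest.

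With dm-αKG, 1011 intergenic peaks lost accessibility and 252 gained it (quasi-likelihood test of edgeR, p adjusted over all peaks by Benjamini-Hochberg and below 0.01, and a log2 fold change beyond 1 in size). These are 2.88% and 0.718% of the intergenic peaks, beside 1.96% and 0.782% of all peaks of the table. Intergenic peaks held 30.0% of all less accessible peaks and 18.8% of all more accessible ones, and they were 20.45% of the table. Of their called peaks, 80.0% were less accessible, a share that was 70.02% when the fit included an offset for GC content (794 less and 340 more accessible peaks). Such an offset also removes any treatment difference that follows GC content. Without the limit on fold change, 3170 intergenic peaks were lower and 843 were higher, or 9.04% and 2.40%, beside 6.54% and 3.34% of all peaks. The median log2 fold change of all intergenic peaks was -0.07 (quartiles -0.38 and 0.19), beside 0.01 for all peaks. The 3 dm-αKG values lay below all 3 control values in 21.6% of intergenic peaks and above them in 11.7%, beside 16.9% and 15.5% of all peaks. Among the called peaks, 1003 of the 1011 less accessible and 251 of the 252 more accessible peaks had treatments that did not overlap. The limits on p and fold change select for this, so it is not separate support for the calls. The p-values measure the spread between these libraries, which the study describes as biological replicates of 1 experiment.

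The called peaks differed in level. The 1011 less accessible peaks had medians of 70.2 normalized counts in control and 28.5 with dm-αKG, so they started above the median control value of all intergenic peaks, 58.0, and ended well below the corresponding dm-αKG value of 54.9. The 252 more accessible peaks had medians of 21.7 in control and 51.4 with dm-αKG, so they started low and ended near the typical level. The limits on p and fold change favour this contrast in advance. It was not particular to intergenic peaks: at other positions, control medians ran from 58.7 to 74.8 for less and from 18.2 to 26.2 for more accessible peaks. The peaks were called by the authors separately for each treatment before the lists were merged, and a peak on 1 list only was chosen in part by its level. Of the less accessible peaks, 625 had a summit in the control list only, and of the more accessible peaks, 176 had one in the dm-αKG list only. The 24229 intergenic peaks with a summit in both lists held 383 less and 75 more accessible peaks, with a median log2 fold change of -0.05.

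The share of all peak counts that fell into intergenic peaks was 17.21%, 17.28% and 17.27% in the control libraries and 16.14%, 16.20% and 16.57% in the dm-αKG libraries. All 3 dm-αKG libraries lay below all 3 controls. The means were 17.25% ± 0.04 and 16.31% ± 0.23 (SD, n = 3 each), a difference of -0.94 percentage points. An exact two-sided permutation test gave p = 0.1, the smallest value that 3 against 3 libraries allow. The 95% binomial intervals of the single shares (Wilson) ran from 16.13 to 16.16% in the deepest dm-αKG library and from 16.55 to 16.59% in the shallowest, and they cover counting error only.

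As a share of the counts in distal peaks only (those more than 10 kb from a start, inside genes or not), intergenic peaks took 41.88%, 42.09% and 41.87% in control and 41.91%, 41.83% and 41.46% with dm-αKG, so that the treatments overlapped. The difference of means was -0.21 percentage points. The median normalized count of an intergenic peak was 58.1, 58.4 and 58.3 in the controls and 54.5, 53.9 and 56.9 with dm-αKG, with every dm-αKG library lower.

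Across the table, the share of less accessible peaks was higher away from promoters. It was 0.228% of 45627 promoter peaks (within 1 kb of a start), 2.01% of 32009 flanking peaks (1 to 10 kb), 2.70% of 40133 peaks inside genes and beyond 10 kb, 2.88% of the intergenic peaks and 2.80% of 18665 intergenic peaks beyond 100 kb. The shares of more accessible peaks were 0.462%, 0.731%, 1.10%, 0.718% and 1.08% in the same order. The median log2 fold change was 0.11 at promoters and -0.01, -0.04, -0.07 and -0.07 in the other classes. The intergenic peaks had the lowest share of more accessible peaks among the 3 distal classes, and their share of less accessible peaks was close to that of the others. They also had the highest median control count of the 3, 58.0 beside 49.4 inside genes and 44.9 beyond 100 kb. The part of this level in the lower share of more accessible peaks was not tested. Under GC offsets the medians of the 5 classes were 0.04, -0.003, -0.0002, -0.04 and -0.02, so the intergenic peaks at 10 to 100 kb kept the lowest median.

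**Figure D1:**
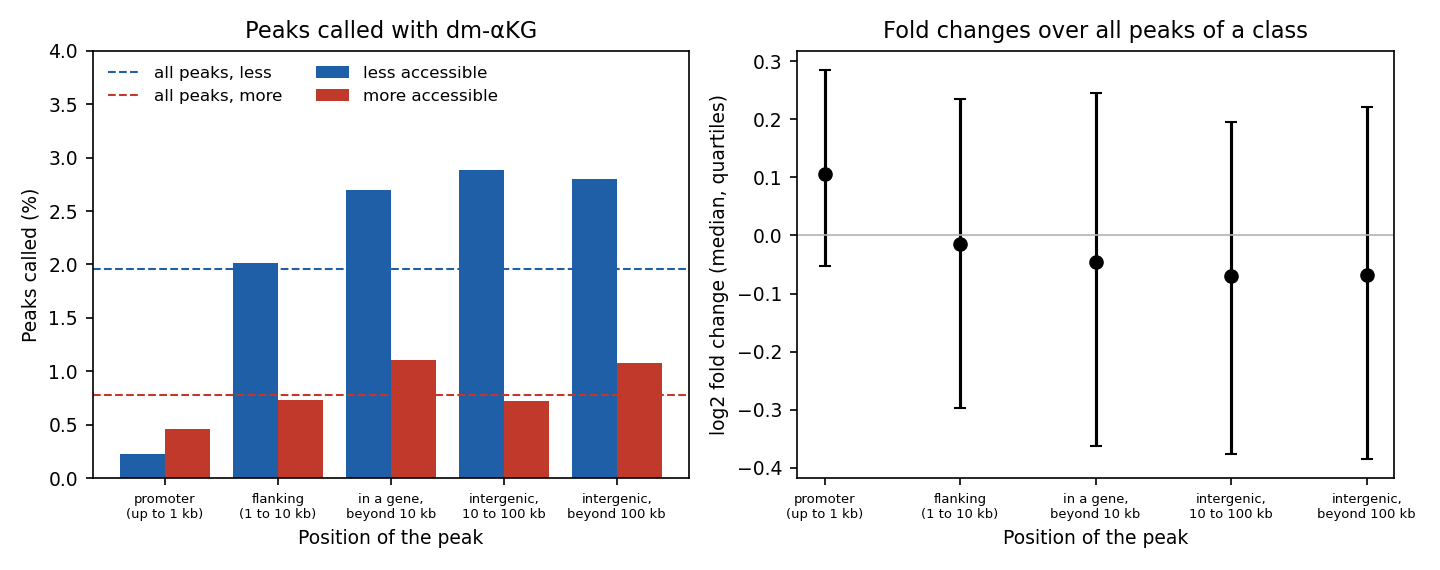
Left, bars give the percent of peaks called less (blue) or more (red) accessible with dm-αKG for 5 position classes, with dashed lines at 1.96% and 0.782% for all peaks. Right, points and bars give the median and quartiles of the log2 fold change over all peaks of each class, which falls from 0.11 at promoters to -0.07 in intergenic peaks at 10 to 100 kb.

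The position limits were not sharp edges in the data. Just outside 10 kb (8 to 10 kb, outside gene bodies), 1.97% of 2279 peaks were less accessible and the median log2 fold change was -0.03, and just inside (10 to 12 kb) the values were 2.58% of 2135 peaks and -0.06. Just inside 100 kb (90 to 100 kb), 3.06% of 1436 peaks were less accessible with a median of -0.07, and just outside (100 to 110 kb) 3.51% of 1253 peaks with a median of -0.11. Within the intergenic peaks, the share of less accessible peaks was 2.57% at 10 to 20 kb, 2.86% at 20 to 30 kb, 2.96% at 30 to 50 kb, 3.18% at 50 to 75 kb and 2.96% at 75 to 100 kb. The share of more accessible peaks was between 0.583% and 0.997% in these ranges.

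By adjusted p, the strongest loss of accessibility lay 19.2 kb upstream of VWF, which encodes von Willebrand factor, a blood clotting protein of endothelial cells and platelets. Its normalized counts were 500.0, 513 and 505 in control and 158, 155 and 179.6 with dm-αKG, with little spread in either group. The log2 fold change was -1.63 (SE 0.10, edgeR's adjusted p = 3.04e-25). The peak 11.5 kb downstream of the start of CYP1A2, a cytochrome P450 of the liver, had 817, 683 and 843 counts in control and 289.7, 328 and 382 with dm-αKG. This was the highest control level among the 8 less accessible peaks named, and it fell by 1.25 on the log2 scale (SE 0.08, edgeR's adjusted p = 3.91e-22). The peak 97.0 kb upstream of PTPN1, a tyrosine phosphatase that acts on the insulin receptor, had 260.3, 335 and 273 counts in control and 79.6, 66.7 and 79.3 with dm-αKG. Its summit was in the control list only, and it fell by 1.94 on the log2 scale (SE 0.14, edgeR's adjusted p = 4.54e-21). The peak 62.4 kb upstream of PTPRJ, a receptor-type tyrosine phosphatase, had 469, 496 and 556 counts in control and 206, 201 and 199 with dm-αKG, and it fell by 1.32 on the log2 scale (SE 0.09, edgeR's adjusted p = 1.22e-20).

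The other 4 less accessible peaks of this rank lay near DCTN6, VWF, PHIP and MEIS3. The peak 48.2 kb downstream of the start of DCTN6, a subunit of the dynactin motor complex, showed the steepest fall of the 8, from 307, 298 and 305 counts to 71.0, 91.1 and 73.3, a log2 fold change of -1.97 (SE 0.13, edgeR's adjusted p = 3.91e-22). The second VWF peak, 18.5 kb upstream, fell from 490.1, 485 and 419 to 171, 186 and 198 counts, a log2 fold change of -1.35. The peak near PHIP, a protein with bromodomains, lay 74.2 kb upstream and fell from 634, 626 and 606 to 261, 251 and 338 counts, a log2 fold change of -1.15. The peak near MEIS3, a homeobox gene, lay 17.4 kb downstream of the start and fell from 256, 269 and 264 to 68.1, 82.1 and 73.3 counts, a log2 fold change of -1.83. All 8 peaks were chosen among called peaks whose treatments did not overlap.

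The strongest gain of accessibility by adjusted p lay 55.7 kb downstream of the start of NENF, which encodes the secreted protein neudesin. It rose from 68.0, 83.8 and 59.5 counts in control to 222, 178 and 209.6 with dm-αKG (log2 fold change 1.52, SE 0.15, edgeR's adjusted p = 1.35e-13). The peak 78.2 kb downstream of the start of ESRRB, an orphan nuclear receptor of the pluripotency network, lay inside a long non-coding RNA gene and rose from 68.0, 98.6 and 72.9 to 182, 196 and 208 counts, a log2 fold change of 1.27 (SE 0.15, edgeR's adjusted p = 1.24e-10). The peak 10.1 kb upstream of PRKAA1, the catalytic subunit of the energy sensor AMPK, rose from 96.6, 113 and 120.2 to 217, 271 and 229 counts, a log2 fold change of 1.11 (SE 0.13, edgeR's adjusted p = 1.29e-10). The peak 13.7 kb downstream of the start of HS3ST6, a heparan sulphate sulfotransferase, rose from 50.1, 63.3 and 61.9 to 152, 133 and 154 counts, a log2 fold change of 1.33 (SE 0.17, edgeR's adjusted p = 1.73e-09). These 4 peaks were likewise chosen among called peaks without overlap of the treatments. Further more accessible peaks lay near XXYLT1, a xylosyltransferase that modifies Notch (log2 fold change 1.15), ARHGAP24, a GTPase activating protein (1.03), MRPS9, a protein of the mitochondrial ribosome (1.19), and BLOC1S4, a subunit of a complex that builds lysosome-related organelles (1.08). The change near ARHGAP24 stood at the limit on fold change and was 0.99 when control replicate 2 or dm-αKG replicate 3 was left out.

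**Figure D2:**
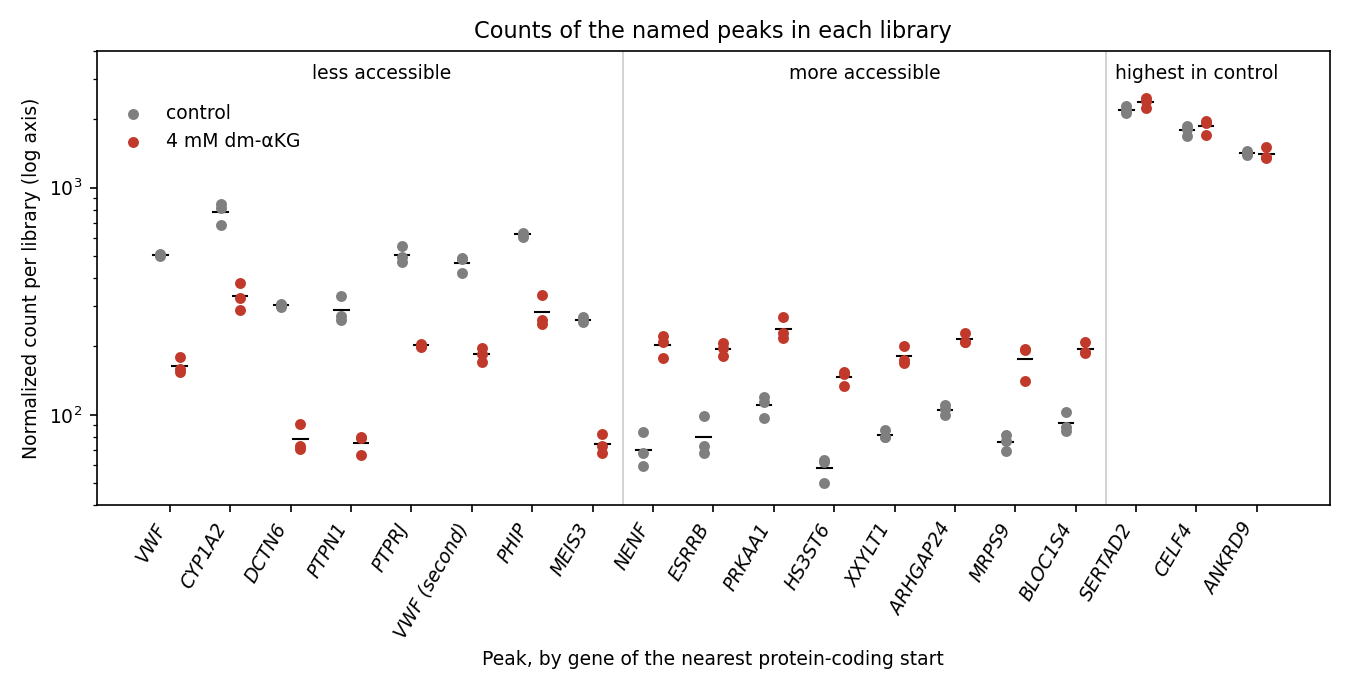
Points give the normalized count of each library on a log axis, grey for control and red for dm-αKG, with a black line at each mean, for the 8 strongest losses and the 8 strongest gains of accessibility by adjusted p and the 3 peaks with the highest control counts. The called peaks shown were chosen among those whose treatments did not overlap. The treatments overlap at the 3 highest peaks.

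The 3 intergenic peaks with the highest control counts did not pass the test. The peak 97.3 kb upstream of SERTAD2 had 2277, 2127 and 2188 counts in control and 2249, 2487 and 2401 with dm-αKG (log2 fold change 0.11, SE 0.05, edgeR's adjusted p = 0.131). The peaks near CELF4 and ANKRD9 had control means of 1789.6 and 1418 and dm-αKG means of 1860.1 and 1408, with log2 fold changes of 0.05 and -0.01. In all 3 the values of the treatments overlapped. When the intergenic peaks were divided into 5 equal groups by mean count, the share of more accessible peaks fell from 1.18% in the lowest to 0.0855% in the highest, and the share of less accessible peaks was 2.64%, 3.92%, 3.62%, 2.67% and 1.57% from lowest to highest.

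Less accessible peaks lay close to one another. Another less accessible intergenic peak lay within 10 kb of 180 of the 1011, or 17.8%, whereas 5.81% of the uncalled intergenic peaks and 4.37% of the more accessible ones had one that near. The 1964 uncalled peaks with a less accessible peak within 10 kb had a median log2 fold change of -0.25, and the other uncalled peaks one of -0.05. For more accessible peaks, 5.56% had another within 10 kb, beside 1.42% of uncalled peaks. Neighbouring peaks can share one broad open region, so these counts are not independent. The less accessible peaks fell to 845 nearest genes and the more accessible ones to 238, with 27 genes in both, and 716 of the 845 genes had only 1.

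VWF was nearest to the most less accessible peaks. Of its 12 intergenic peaks, all upstream, 9 were less accessible and all 12 had a negative log2 fold change, with a median of -1.23. They formed 2 groups of high counts, one 18.5 to 19.2 kb and one 35.7 to 37.2 kb from the start. The first held the steepest change of the locus, from a mean of 215 to 68.8 normalized counts (log2 fold change -1.68, SE 0.15). The second held 5 peaks with control means between 303 and 478 and log2 fold changes between -1.04 and -1.31. The 9 less accessible peaks spanned 25.4 kb on chromosome 12.

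SPRY2, an inhibitor of receptor tyrosine kinase signalling, had 5 less accessible peaks of 12, which lay on both sides of the gene over 97.2 kb. All 12 had a negative log2 fold change, 2 of them at -0.002 and -0.01 with 17.9 and 18.6 counts in control, and the median was -1.0004. JADE1, a scaffold of a histone acetyltransferase complex, had 5 of 12, of which 4 lay 76.1 to 78.6 kb upstream and 1 lay 34.0 kb upstream, while another peak 27.2 kb upstream had a log2 fold change of 0.59 that did not pass the test (SE 0.24). SLC4A7, a bicarbonate transporter, had 5 less accessible peaks of 15, with a median of -0.97 over its 15 peaks. MAP3K7, a kinase of the TGFβ and NF-κB pathways, was 1 of 5 genes with 4 such peaks (4 of 14, with a median of -0.28). CEACAM21 was nearest to 3 more accessible peaks (of 8), and 12 genes tied at 2, among them JUND, a JUN family factor (2 of 8), and TBX3, a T-box factor (2 of 37). The 3 CEACAM21 peaks were low in control, at 8.11 to 34.0 normalized counts, with log2 fold changes of 1.33 to 1.65, and the 2 JUND peaks lay next to each other within 0.412 kb.

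**Figure D3:**
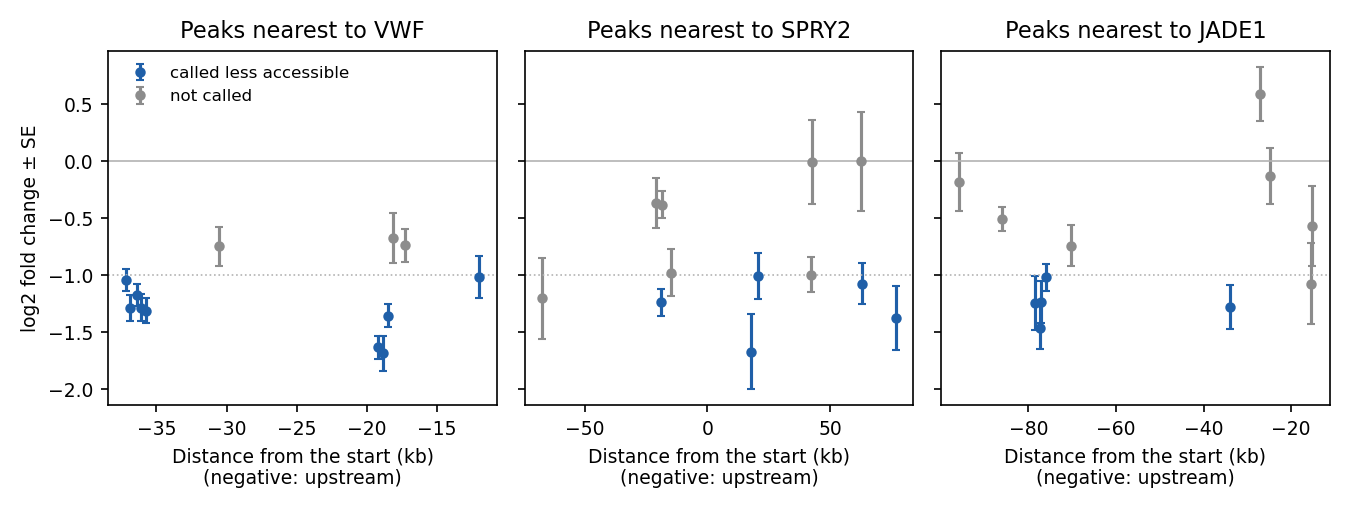
Points give the log2 fold change (± SE) of each intergenic peak nearest to VWF, SPRY2 or JADE1 against its distance from the start in kb, blue where the peak was called less accessible. All peaks at VWF lie upstream and below 0, and those at SPRY2 lie on both sides of the start.

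Peaks of 12 gene lists, drawn up with earlier results of these data known, were examined by nearest gene. Together, 155 of the 227 listed genes were nearest to 1214 intergenic peaks, of which 43 were less and 16 were more accessible. Of these, 13 and 7 were called in each of 15 alternative fits (other scalings, a filter, GC offsets, the replicate block, other tools and 1 library left out at a time). Most calls near listed genes were thus lost in at least 1 of them, some only when a library was left out. The same count was not made for all called intergenic peaks. Without dm-αKG replicate 1, 690 of the 1011 less and 155 of the 252 more accessible intergenic peaks kept the call. The shares below stand beside 2.88% less and 0.718% more accessible for all intergenic peaks. Genes of naive and core pluripotency were nearest to 260 peaks, of which 9 were less accessible (3.46%) and 3 were more accessible (1.15%), with a median log2 fold change of -0.16. The less accessible ones lay near FOXD3, DPPA4 and PRDM14, with 2 each, and KLF17, KLF5 and KLF4, and the share was close to that of all intergenic peaks. The KLF4 call was lost in 10 of the 15 alternative fits and 1 of the 2 DPPA4 calls in 8, in both cases also with DESeq2. Of the 2 FOXD3 calls, 1 was lost in 1 fit. The KLF17, KLF5, PRDM14 and other DPPA4 and FOXD3 calls held in all 15. The PRDM14 peak 95.5 kb downstream of the start, near a gene that holds naive pluripotency, fell from 203, 215 and 221 to 65.3, 89.8 and 98.8 counts (log2 fold change -1.38, SE 0.15, edgeR's adjusted p = 1.91e-12), and the one 63.5 kb downstream fell from 148, 149.6 and 117 to 50.9, 48.7 and 58.4 (log2 fold change -1.41). The DPPA4 peak 95.5 kb upstream fell from 101.1, 97.0 and 117 to 40.2, 44.9 and 49.4 counts. The 3 more accessible peaks were the ESRRB peak given above and 2 near TBX3, of which one rose from 31.3, 35.3 and 15.8 to 93.2, 91.1 and 56.9 counts and the other from 52.8, 58.4 and 53.4 to 131, 123.2 and 102. Both TBX3 peaks were in the dm-αKG list only, and 23 of the 37 peaks nearest to TBX3 had a negative log2 fold change.

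Genes of NODAL, FGF, LIF and WNT signalling were nearest to 209 peaks, of which 14 were less accessible (6.70%) and 3 were more accessible (1.44%), with a median of -0.12. Beside the 5 at SPRY2, less accessible peaks lay near SMAD7 (3), an inhibitor of TGFβ signalling, SPRY4 (2), SPRY1, STAT3, TCF7L1 and TCF7L2. The SPRY2 peak 18.8 kb upstream fell from 314, 278 and 300.0 to 113, 129.6 and 142 counts (log2 fold change -1.24, SE 0.12, edgeR's adjusted p = 4.51e-14). The STAT3 peak fell from 68.9, 77.3 and 70.5 to 28.7, 29.5 and 22.5 counts. The 3 more accessible peaks lay near SMAD3, TCF7L2 and FGFR1, with control means of 20.8, 24.7 and 26.8 normalized counts. The list's less accessible count was 9 under GC offsets and with DESeq2 and 7 without dm-αKG replicate 1, and its more accessible count was 1 without control replicate 2 or dm-αKG replicate 2. SPRY1, SPRY2, SPRY4 and SMAD7 act as inhibitors of the pathways they belong to.

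Genes of the trophectoderm and trophoblast were nearest to 186 peaks, of which 5 were less (2.69%) and 1 was more accessible (0.538%), near the shares of all intergenic peaks, with a median of -0.05 that was 0.02 under GC offsets. Of the less accessible ones, 2 lay near TFAP2C and 1 each near HAND1 and MSX2. The TFAP2C peak 44.2 kb upstream, near a factor shared by naive and trophoblast cells, fell from 166, 209.6 and 187 to 73.1, 65.4 and 80.8 counts (log2 fold change -1.36), and its window held a SOX word. The HAND1 peak fell from 169, 178 and 191 to 77.4, 92.4 and 102 counts (log2 fold change -1.01), at the limit on fold change. The more accessible peak lay near SLC2A1, a glucose transporter (log2 fold change 1.01). It was not called without control replicate 3, or when replicate 2 or 3 of dm-αKG was left out, or with limma-voom, and GC offsets left 3 less accessible peaks in the list. Genes of the primitive endoderm were nearest to 73 peaks, with a median of 0.07. Of these, 2 were less accessible (SPARC and GATA4) and 3 more accessible (4.11%, of which 2 lay near GATA6). The GATA6 peak 53.5 kb downstream of the start rose from 16.99, 13.2 and 23.1 to 59.5, 60.3 and 58.4 counts (log2 fold change 1.77, SE 0.28), and the one 59.0 kb upstream rose from 50.1, 30.4 and 21.9 to 72.4, 133 and 77.8. The list's 2 less accessible peaks (2.74%) were 1 without control replicate 1 or with DESeq2 and 0 without dm-αKG replicate 3. Of the 68 peaks nearest to genes of the primitive streak and mesoderm, edgeR called 0 less accessible, as did DESeq2 and limma-voom, with 16 lower at an unadjusted p below 0.05. The 1 more accessible peak (1.47%) lay near SNAI1, a call lost without control replicate 1 or dm-αKG replicate 1. Of 117 peaks nearest to genes of primed pluripotency, 8 were less accessible (6.84%), with 4 near CD24, 2 near SOX11 and 1 each near SALL2 and ZIC2. The 1 more accessible peak (0.855%) lay near THY1 and rose from 8.94, 9.86 and 7.29 to 44.5, 34.6 and 46.4 counts. The less accessible count of this list was 4 under GC offsets or thinning and 5 without dm-αKG replicate 1.

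JUN, FOS and ATF family genes were nearest to 65 peaks, with a median of 0.11. Of these, 3 were more accessible (4.62%), 2 near JUND and 1 near FOS, and 1 near FOS was less accessible (1.54%). The JUND peak 19.7 kb upstream rose from 54.6, 52.6 and 63.2 to 113, 126 and 142 counts (log2 fold change 1.15, SE 0.18, edgeR's adjusted p = 4.76e-07) and held an AP-1 word. The FOS peak 32.6 kb upstream fell from 100.2, 78.9 and 114 to 17.9, 25.7 and 52.4 counts (log2 fold change -1.72), and the one 26.9 kb downstream rose from 28.6, 18.9 and 14.6 to 39.4, 47.5 and 50.9 (log2 fold change 1.10). This gain near FOS was not called in 6 of 15 alternative fits, DESeq2 among them. The other JUND gain was lost in 1 fit, and the FOS loss and the JUND gain given here held in all 15. The less accessible count of this list was 2 without dm-αKG replicate 3. Histone acetylation and demethylation genes had 65 peaks with 2 less accessible (3.08%, close to the 2.88% of all intergenic peaks), and a median of -0.05 that was 0.03 under GC offsets. These 2 were one near the acetyltransferase gene KAT2B (258, 220.3 and 269.6 to 107, 115 and 139 counts) and one near the demethylase gene KDM4C. Neither was called under GC offsets, and 1 was called with DESeq2, without control replicate 2, and when replicate 1 or 3 of dm-αKG was left out. FOX factor genes had 73 peaks with 2 less accessible (2.74%, FOXP4 and FOXK1) and 1 more accessible (1.37%, FOXQ1). Both less accessible calls stood at the limit on fold change (-1.01 each), and neither was called under total counts, thinning or GC offsets, without control replicate 2, or when replicate 1 or 3 of dm-αKG was left out, while 1 was called without control replicate 1. Called peaks numbered 0 among the 47 nearest to YAP and TEAD targets, the 24 nearest to NRF2 and antioxidant genes and the 27 nearest to genes of the TCA cycle and acetyl-CoA, with edgeR, DESeq2 and limma-voom alike, although 1 peak of the last list was called less accessible without dm-αKG replicate 3. At an unadjusted p below 0.05 in edgeR, 11, 1 and 8 of these peaks were lower and 5, 3 and 2 were higher, and the medians were -0.05, -0.10 and -0.11, the last of them 0.02 under GC offsets. A peak near PDK4, an inhibitory kinase of pyruvate dehydrogenase, was noticed after its values were seen: it lay 12.4 kb upstream and rose from 44.7, 29.6 and 46.2 to 98.96, 104 and 124 counts (log2 fold change 1.44, SE 0.20, edgeR's adjusted p = 3.27e-08).

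Sequence words were compared as shares of windows, without a test. The OCT word was present in 2.76% of intergenic windows, in 7.02% of the less accessible and 1.19% of the more accessible ones, beside 2.283% of all peaks of the table. The SOX word was present in 3.04% of intergenic windows, in 7.02% and 0.397% of the less and more accessible ones, beside 2.70% of all peaks. The 969 intergenic peaks with an OCT word had a median log2 fold change of -0.23 and the 1066 with a SOX word one of -0.26, and peaks without them had medians of -0.07 and -0.06. Under GC offsets the medians with the words were -0.15 and -0.19. Of the peaks with an OCT word 7.33% were less accessible, and of those with a SOX word 6.66%. The 45 peaks that held both had a median of -0.39. In each library the level pointed the same way: the median normalized count of peaks with an OCT word was 72.4, 74.0 and 70.5 in control and 57.4, 56.4 and 59.9 with dm-αKG, and that of peaks with a SOX word was 63.9, 64.5 and 64.4 in control and 50.9, 51.3 and 52.4 with dm-αKG. No dm-αKG library reached the lowest control library in either set. The same held for all intergenic peaks and for those with a KLF, TEAD or GATA word, but the differences were smaller. The dm-αKG mean was 0.80 times the control mean with an OCT or a SOX word. It was 0.90 times with KLF or TEAD, 0.92 times with GATA and 0.945 times for all intergenic peaks.

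The AP-1 word was present in 7.78% of intergenic windows, in 5.34% of the less accessible and 24.2% of the more accessible ones, beside 6.33% of all peaks. The FOX word was present in 3.26%, 2.27% and 9.52% of these windows and in 2.85% of all peaks, and the NRF2 word in 9.89%, 7.81% and 14.7%, and 9.57% of all peaks. The NRF2 and AP-1 words overlap in their letters, and 552 intergenic windows held both. The medians of all peaks with an AP-1 or a FOX word were near 0, at -0.003 and -0.02, and changed sign with the scaling (0.05 for both under GC offsets). The median normalized count of peaks with an AP-1 word was 58.1, 60.01 and 60.7 in control and 58.8, 59.0 and 61.4 with dm-αKG, where the treatments overlapped. Of the more accessible peaks, 32.1% held an AP-1 or FOX word, beside 7.52% of the less accessible ones. Of the less accessible peaks, 13.7% held an OCT or SOX word, beside 1.59% of the more accessible ones, and 49.9% of the less accessible peaks held none of the 10 words.

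The CTCF word was rarer in called peaks. It was present in 4.40% of intergenic windows, in 1.68% of the less accessible and 1.19% of the more accessible ones, beside 3.41% of all peaks. The 1545 peaks with it had a median log2 fold change of 0.04, and their median normalized count was 73.3, 70.7 and 72.9 in control and 73.1, 73.1 and 73.3 with dm-αKG, with overlapping treatments. The TFAP2 word was present in 14.8%, 9.99% and 18.7% of all, less and more accessible intergenic windows (17.9% of all peaks), TEAD in 16.2%, 17.4% and 13.1% (14.6%), KLF in 4.80%, 5.34% and 5.56% (4.26%) and GATA in 2.49%, 1.98% and 1.98% (2.09%). Peaks with a TEAD word had a median of -0.13 and peaks with a KLF word one of -0.12, which were -0.08 and -0.09 under GC offsets.

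**Figure D4:**
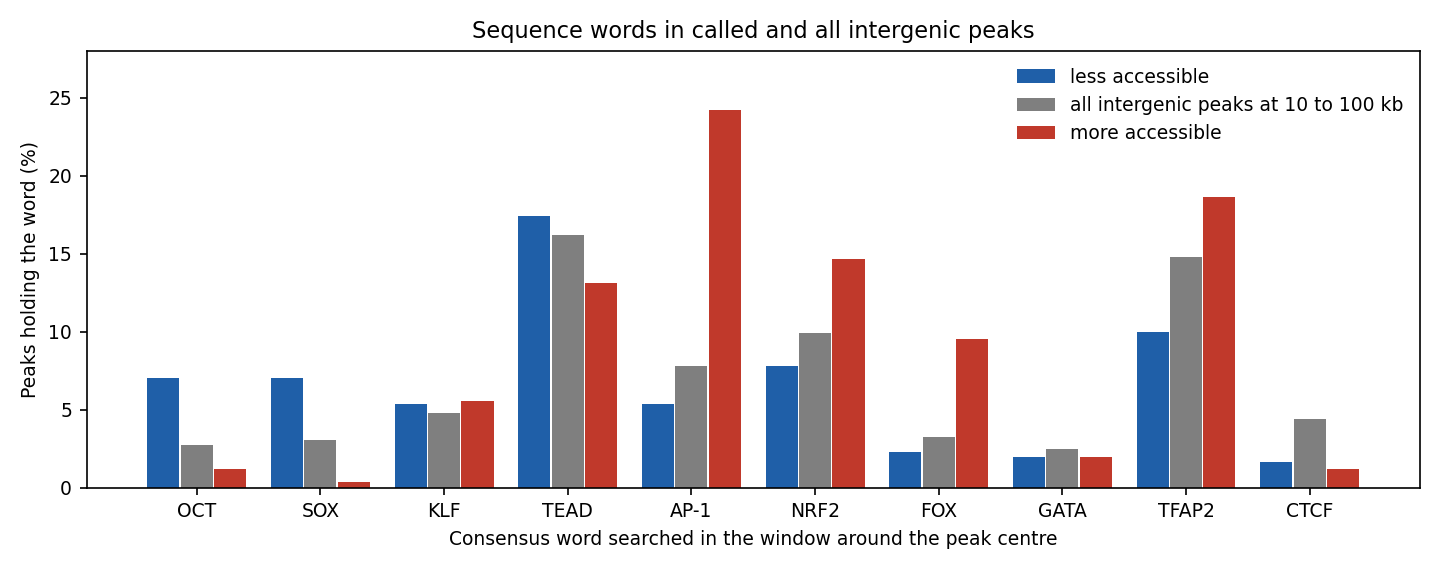
Bars give the percent of 200-base windows that held each consensus word, in less accessible (blue), all (grey) and more accessible (red) intergenic peaks. OCT and SOX stand higher in the less accessible peaks, at 7.02% each, and AP-1 and FOX in the more accessible ones, at 24.2% and 9.52%.

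GC content moved with the fold change. The median log2 fold change of intergenic peaks was -0.12 below 40% GC, -0.13 at 40 to 45%, -0.11 at 50 to 55%, -0.02 at 60 to 65% and 0.08 above 70%. The share of less accessible peaks fell along the same scale, from 5.89% of 968 peaks below 40% to 0.214% of 1868 peaks above 70%, and the share of more accessible peaks from 1.24% to 0.107%. Peaks with no CpG in the window had a median of -0.17 and those with more than 10 one of 0.05. The libraries themselves differed in this respect: the median normalized count of intergenic peaks under 45% GC was 45.6, 47.7 and 43.7 in control and 41.6, 42.3 and 43.4 with dm-αKG, and that of peaks at 65% GC or more was 85.9, 85.5 and 87.5 in control and 92.5, 92.4 and 89.8 with dm-αKG. When GC offsets were fitted, the median above 70% GC was -0.04 and that below 40% was 0.02. The offsets follow each library's own trend with GC content, so they remove any treatment difference along that scale, whatever its source. The loss of the trend under them was therefore fixed in advance. Whether the trend lies in the chromatin or in the libraries cannot be told apart here.

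**Figure D5:**
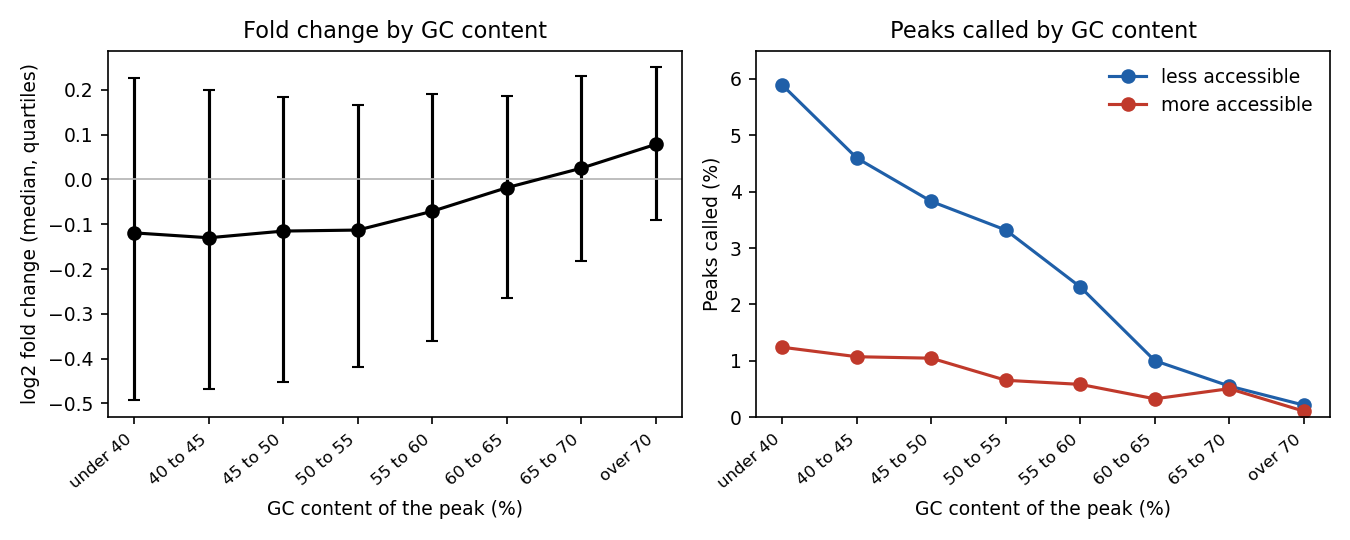
Left, the median and quartiles of the log2 fold change of intergenic peaks by the GC content of the peak in percent, rising from -0.12 below 40% to 0.08 above 70%. Right, the percent of peaks called less (blue) or more (red) accessible in the same ranges, without a correction for GC content.

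Within a band of 40 to 50% GC in the window (11069 intergenic peaks, 461 less and 122 more accessible), the OCT word was in 5.06% of all, 9.98% of the less accessible and 1.64% of the more accessible windows. The AP-1 word was in 10.3%, 6.07% and 24.6% of these windows, the FOX word in 4.88%, 3.04% and 13.1%, and the SOX word in 4.20% of all and 8.68% of the less accessible ones. The order of the shares of these 4 words was the same as without the band. It changed for 4 others: KLF and TEAD were in 5.21% and 18.4% of the less accessible, 4.34% and 19.7% of all and 3.28% and 13.9% of the more accessible windows of the band, and CTCF and GATA were in 0.868% and 2.60%, 4.17% and 4.16%, and 1.64% and 1.64%. At 50 to 60% GC, 2.90% of 14976 intergenic peaks were less accessible, beside 0.419% of 9304 promoter peaks, 2.13% of 12643 flanking peaks, 2.39% of 16528 peaks inside genes and 2.30% of 7359 intergenic peaks beyond 100 kb. The medians were -0.10, 0.08, -0.05, -0.06 and -0.08 in the same order.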

How the data were processed

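ATAC-seq libraries of H9 nES cells were grouped by the treatment in the labels, 3 control and 3 dm-αKG. The authors demultiplexed reads with bcl2fastq 2.20.0.422, ran the ENCODE ATAC-seq pipeline once per treatment (Bowtie 2 on hg38, MACS2, irreproducible discovery rate), cut the reproducible peaks to 200 bp around the summit, merged both lists and deposited raw counts per peak and library (bedtools 2.28.0). The deposited lists also give, for each peak, a pipeline score, a fold enrichment ratio over background and −log10 p and q, and only the summits were used here, to say which list holds a peak.

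The main test was the quasi-likelihood test of edgeR 4.0.16 in R 4.3.3, with TMM factors and a single term for treatment, on all 171517 peaks, with DESeq2 1.42.0, which the study used, and limma 3.58.1 (voom) as alternatives. Calls needed an adjusted p below 0.01 together with a log2 fold change beyond 1 in size. Each standard error is that size over the square root of F. No filter on low counts was used. Of the 171517 peaks, 0 ended past a chromosome of the reference, and starts came from 89067 protein-coding transcripts of GENCODE 44. Words were searched in unmasked sequence with Python 3.11.15. Alternatives changed the scaling, filter, depth, GC offsets (lowess, span 0.2), thresholds, set of peaks and libraries. The GC offsets were fitted to each library without regard to treatment, so they also remove a treatment difference that follows GC content.

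The peaks, gene lists, words and tests were chosen with earlier results of these data known. Named peaks were the 8 less and 8 more accessible that ranked first by adjusted p among called peaks without overlap of the treatments, the 3 with the highest control mean, called peaks of the lists (the 12 with the smallest adjusted p first), and the genes nearest to most called peaks (5 less, 3 more accessible, ties broken by the smallest adjusted p). Peaks near STAT3, THY1, GATA6, SLC2A1 and other listed genes beyond those 12, and the second peak near TBX3 and FOS, were added after their values were seen. Marker promoters were the peak of highest mean count within 1 kb of a start of each gene. The sequence of 1 peak and the names of 2 listed genes are not reported here.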

Additional observations from a re-analysis of the deposited data

How the results depend on the processing

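Counts of called intergenic peaks kept their excess of less accessible ones under all alternatives run. DESeq2 called 749 less and 151 more accessible peaks, and edgeR also called 748 and 149 of them. Any fold at an adjusted p below 0.01 gave 3170 and 843, any fold at below 0.05 gave 4973 and 1851, and peaks in both deposited lists gave 383 and 75. GC offsets gave 794 and 340, and 778 and 242 of these were shared with the fit without offsets. Leaving out 1 library at a time gave 833 to 1143 less and 188 to 256 more accessible peaks, and a median log2 fold change of -0.08 to -0.06.

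The replicate number is shared by the groups. The deviations of same-numbered control and dm-αKG libraries correlated at -0.016, -0.0014 and 0.013, so no shared effect of the number was seen. Such values cannot tell whether same-numbered libraries were prepared together. A fit with the replicate block called 997 and 251 peaks, and the block with GC offsets called 789 and 334, with a median log2 fold change of -0.0401. The difference in the share of counts was -0.73 percentage points for peaks beyond 20 kb, -0.77 for peaks in both lists and -0.21 as a share of distal peaks only, where the dm-αKG mean was 0.995 times the control mean rather than 0.945 times. The cause of these shifts was not tested.

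Among the strongest and list peaks followed in every setting, those near ARHGAP24, KAT2B, SOX11 and HAND1 fell below the limit on fold change under some settings, with log2 fold changes down to 0.99, -0.95, -0.92 and -0.88. Over all called peaks near listed genes, 30 of 43 less and 9 of 16 more accessible ones lost the call in at least 1 of 15 alternatives, and 45 of 384 recomputed list counts moved by over 1.5 times. The sign of ANKRD9, near 0 throughout, changed. Among word shares, 5 of 320 values moved: the SOX word in more accessible peaks was at 0 when libraries were thinned or control replicate 1 was left out, the FOX word in less accessible peaks was at 1.51% without dm-αKG replicate 1, and the GATA word in more accessible peaks was at 0.662% with DESeq2 and 0.515% without dm-αKG replicate 1. Depth limits the precision of low peaks, with a median standard error of 0.36 in the lowest of 5 groups by count. At least 10 counts in every library kept 31528 intergenic peaks, of which 834 were less and 208 more accessible.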

Other observations

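The intergenic peaks of single chromosomes differed in their median log2 fold change. It was lowest on chromosome X (-0.16 over 1037 peaks, with 4.63% less accessible) and chromosome 4 (-0.14 over 1619 peaks, with 3.89% less accessible). It was highest on chromosome 22 (0.06 over 804 peaks, with 1.62% less accessible) and chromosome 19 (0.04 over 1136 peaks, with 2.201% less accessible). The median GC content of these peaks was 51.5% on chromosome X and 50.5% on chromosome 4, beside 57.7% on chromosome 22 and 55.4% on chromosome 19. The part of GC content in these differences was not tested. Without sex chromosomes, 969 less and 247 more accessible peaks were called and the median was -0.07.

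Intergenic peaks upstream of the nearest start had a median log2 fold change of -0.08 (21999 peaks, 3.09% less accessible), and those downstream of it had one of -0.05 (13084 peaks, 2.53% less accessible). Peaks inside long non-coding RNA genes had a median of -0.04 (8795 peaks, 2.49% less accessible), and the others had one of -0.08 (26288 peaks, 3.01% less accessible).

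The association of words with the fold change was also present in the other distal classes. The median log2 fold change of peaks with an OCT word was -0.21 inside genes beyond 10 kb and -0.22 in intergenic peaks beyond 100 kb, and that of peaks with a SOX word was -0.21 and -0.22. Peaks with a CTCF word had medians of 0.08 and 0.04 in these classes.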
